A study of Mus musculus with 10 samples.

Results

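Erythroid cells were examined by single-cell RNA sequencing in cortical tissue of 10 embryonic mice (E16.5). A cell was taken as erythroid when globin transcripts (gene symbols starting with Hba- or Hbb-) made up at least 20% of its unique molecular identifiers (UMIs), among cells that had 1000 or more UMIs and a mitochondrial share of 10% or less. This held for 1646 of the 65779 cells that passed the filters. The embryos were 3 WT, 4 heterozygous (Gatad2b stop/+, Het) and 3 homozygous (Gatad2b stop/stop, KO). Each embryo gave 1 library. All came from a colony on the C57BL/6N background that carries the A tm1Brd coat color allele. The stop allele is the tm1a(EUCOMM)Hmgu trap cassette, which sits in an early intron of Gatad2b and is carried by the whole embryo, not only by the brain. Cortex was dissociated with papain, and neither red cell lysis nor a cell sort is described, so the erythroid cells came along with the tissue. Whether they were circulating in vessels of the cortex or spilled over from blood at dissection is not given. Embryo sex is not given either.

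Red cells of a mid-gestation mouse come from a pair of waves. Primitive cells from the yolk sac carry embryonic globins (Hbb-y, Hbb-bh1, Hba-x), whereas definitive cells from the fetal liver carry adult globins (Hba-a1, Hba-a2, Hbb-bs, Hbb-bt). A definitive erythroblast expels its nucleus and becomes a reticulocyte, which still holds globin mRNA but makes no new mRNA, and which then loses its mitochondria, ribosomes and remaining RNA on the way to the mature red cell. Gatad2b encodes a zinc finger subunit of the NuRD chromatin remodeling and deacetylase complex, which takes part in gene silencing in many tissues, blood lineages included.

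The globin values chose the cells and are given as a description. The number of erythroid cells was 178, 244 and 230 in the WT embryos, 171, 198, 177 and 95 in the Het embryos, and 133, 109 and 111 in the KO embryos. Globins held more than 80% of the UMIs in most of them: 74 cells were above 95%, 759 were at 90 to 95%, 468 at 80 to 90%, 234 at 50 to 80% and 111 at 20 to 50%. Few cells lay near the limit, with 18 cells at 20 to 25% (median 33147 UMIs) and 21 cells just outside at 15 to 20% (median 22573 UMIs). A further 127 barcodes rich in globin had under 1000 UMIs and 5 had too many mitochondrial UMIs, and these were left out. No erythroid barcode was erythroid in more than 1 library, although 23 of the 1646 barcodes also named a kept cell of another library.

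The label was checked on genes that did not choose the cells. Slc4a1, the anion exchanger band 3 of the red cell membrane, averaged 371 ± 124 UMIs per 1000000 non-globin UMIs (CPM; SD, n = 10 embryos) against 0.132 in the other kept cells. Alas2, the erythroid enzyme of the first step of heme synthesis, averaged 6177 ± 1674 against 1.12. Both genes mark erythroid cells, and both were higher in erythroid than in other cells in all 10 embryos. No test was made of erythroid against other cells, since the cells were chosen by their transcripts.

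Gatad2b (chr3:90293178-90363407, mm10) was checked first as the targeted gene. In the other kept cells it stood at 135 to 144 CPM in WT embryos, between 90.2 and 97.2 in Het and between 50.2 and 59.0 in KO, so that the 3 genotypes did not overlap. The trap cassette retains the later exons, and UMIs counted at the 3′ end need not vanish. In erythroid cells Gatad2b had only 7 to 40 UMIs per embryo, or 86.2 to 99.1 CPM in WT embryos, 56.6 to 90.1 in Het embryos and 32.8 to 51.6 in KO embryos. Most of these UMIs lay in the few RNA-rich cells described below. The erythroid cells with at most 2000 non-globin UMIs had 0 to 9 per embryo, or 24.4 to 48.4 CPM in WT embryos, 14.4 to 28.6 in Het embryos and 0 to 22.3 in KO embryos. The names of the libraries start with 1 of 2 prefixes, whose meaning is not given. WT 1 to 3 and Het 4 share one of them, and Het 1 to 3 and KO 1 to 3 share the other, so a difference between KO and WT cannot be told apart from a difference between prefixes except through the Het embryos. The study speaks of WT and stop/+ littermates without saying which embryos shared a litter, and p-values measure the spread between these embryos.

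Most erythroid cells held little RNA other than globin. The total of erythroid UMIs was 875720 to 2410110 per embryo, of which 153751 (KO 2) to 559313 (Het 3) were not globin. The median cell of an embryo had 6623 to 11876 UMIs, but only 619 to 905 outside the globins, spread over 233 to 412.5 genes. Mitochondrial UMIs were 0.256 to 0.462% of a median erythroid cell and 3.62 to 4.71% of a median other cell, with globin counted in the total. Of the non-globin UMIs they made up 3.29 to 5.08% in erythroid cells with at most 2000 non-globin UMIs, and 3.69 to 4.75% in other cells. The median globin share was 85.3 to 88.9% in WT 1 to 3 and Het 4, and 91.3 to 93.3% in the other 6 embryos, so it separated the library prefixes. When each cell was thinned to 200 non-globin UMIs, the median number of genes was 140 to 144 in WT, 111.5 to 130 in Het embryos and 103 to 115 in KO embryos.

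A minority of the cells dominated the non-globin RNA. The 200 erythroid cells with more than 2000 non-globin UMIs (12.2%) held 65.4% of it, and 72 cells with more than 10000 held 50.2%. In these 200 cells the median globin share was 54.9%. A list of 15 neuron genes stood in for RNA of the neurons that make up most of the cortex, and 105 of the 200 cells held it at 0.5 or more of its level in the other kept cells. Markers of endothelial cells were found in 11 of the 200 (at least 4 markers each), markers of mural cells in 6, of radial glia in 32 and of interneurons in 23. Without the cells that met the neuron level or held at least 4 endothelial, mural or microglia markers, 85 of the 200 were left, with a median of 2385 non-globin UMIs. Radial glia and interneuron markers were not used to remove cells there. The other 1446 erythroid cells had a median of 681.5 non-globin UMIs, 90.6% globin and 0.295% mitochondrial UMIs. No doublet caller was run, and the 200 cells were instead left out of the alternatives described below, in which 1446 cells remained.

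**Figure D1:**
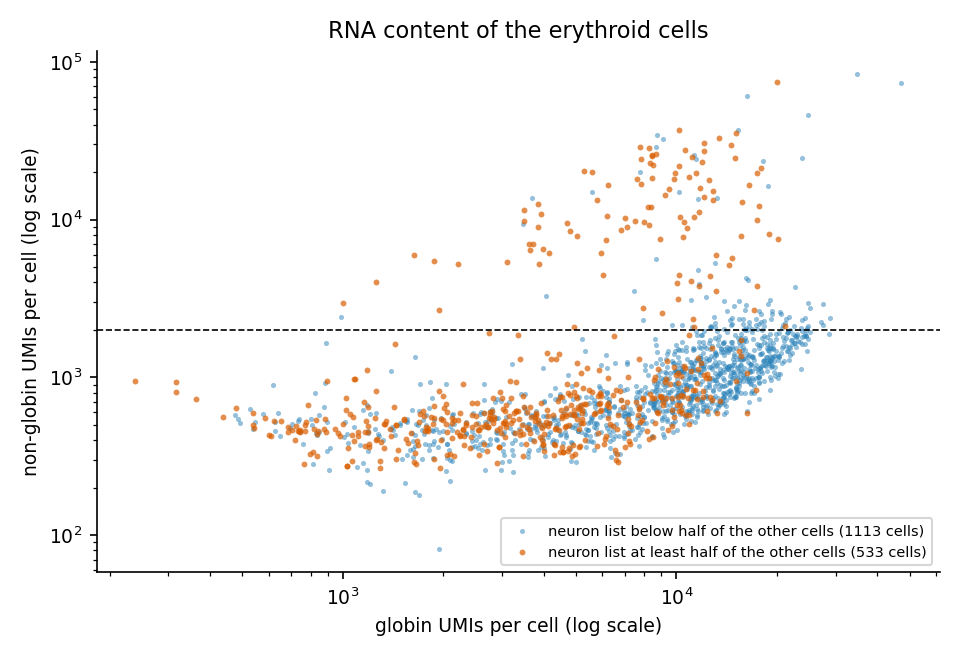
Each point is 1 of the 1646 erythroid cells, with its globin UMIs on the horizontal and its non-globin UMIs on the vertical axis, both on log scales. Orange marks cells whose neuron gene level was at least 0.5 of that in other kept cells, and they make up most of the points far above the dashed line at 2000 non-globin UMIs.

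Free RNA of the tissue was measured in the same cells. In the 1446 RNA-poor cells the neuron list stood at 0.414 to 0.452 of its level in other cells in WT, 0.253 to 0.371 in Het embryos and 0.192 to 0.264 in KO embryos, and none of its 15 genes was above its level in other cells in every embryo. The median RNA-poor cell held 6 neuron list UMIs in each WT embryo, 3 to 4 in Het embryos and 2 to 3 in KO embryos. These counts were divided by the share of the list in other cells (1.51 to 1.76%) to estimate UMIs from the surrounding tissue. The estimate was 342 to 351 per cell in WT, 184 to 264 in Het embryos and 131 to 191 in KO embryos. It is coarse, since the medians are small whole numbers. The number of neuron UMIs moved less with the size of the cell than the number of globin UMIs did. In WT 1 it was 6.37 per cell in the tertile of cells with the fewest globin UMIs and 7.04 in the tertile with the most, while the mean number of globin UMIs went from 1745 to 11533. Between these tertiles it went from 6.24 to 6.76 in WT 2 and from 5.90 to 6.82 in WT 3. In Het 1 to 4 it went from 4.75 to 4.56, 3.20 to 4.34, 2.54 to 3.12 and 3.74 to 4.37, and in KO 1 to 3 from 2.20 to 2.15, 2.65 to 2.74 and 3.03 to 3.79, so it was higher in the upper tertile in all embryos but Het 1 and KO 1. The flow of RNA in the opposite direction was small: globins were found in 44.6 to 87.4% of the other cells, but with a median of 0 to 2 UMIs and 0.00702 to 0.0740% of their UMIs.

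Other cell types left uneven traces. The endothelial list stood at 65.4 times its level in other cells in KO 1, 44.2 times in Het 1, 22.3 times in Het 3, 2.06 times in Het 2 and at most 0.709 times in the other embryos. Without the RNA-rich cells it stood at 0 to 0.771 times in every embryo. In those RNA-poor cells the interneuron list stood at 0.299 to 1.02, the radial glia list at 0.160 to 0.481, the mural list at 0 to 1.34, the microglia list at 0 to 2.70 and the choroid plexus list at 0 to 8.84 times its level in other cells. The choroid plexus list was at 342, 48.4 and 58.5 CPM there in WT 1 to 3, and at 0 in every Het and KO embryo. In all erythroid cells 6 of 8 microglia and 4 of 6 choroid plexus genes had UMIs. The microglia genes Cx3cr1 and P2ry12 and the choroid plexus genes Kcne2 and Kl were at 0 in the RNA-poor cells. Of 6 megakaryocyte genes, Pf4, Ppbp, Gp9 and Treml1 were at 0 in all erythroid cells, and Itga2b had 15 UMIs and Gp1bb had 1. The list stood at 0 to 3.20 times its level in other cells (highest in Het 1), and at 0 in the RNA-poor cells of every embryo.

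The leading non-globin genes were chosen as the 30 with the highest mean level among genes at least 10 times above other cells in every embryo. Ribosomal protein and mitochondrial genes were set aside, and 60 genes met the rule. Because a UMI is counted once per transcript at its 3′ end, levels were not divided by gene length. The highest was Mkrn1 (chr6:39397804-39420462), a ubiquitin ligase, at 7471 ± 2371 CPM (SD, n = 10) and 43.7 times its level in other cells. Alas2 (chrX:150547375-150570638) followed at 6177 ± 1674, Bpgm (chr6:34476207-34505613) at 5512 ± 1577 and Gpx1, a glutathione peroxidase, at 5046 ± 2336. Bpgm makes 2,3-bisphosphoglycerate, which lowers the oxygen affinity of hemoglobin. The ratio to other cells was high for Alas2 (5512 times), Slc4a1 (2800 times; chr11:102348824-102366203), Fam46c (2472 times) and Isg20 (1969 times). Fam46c encodes a poly(A) polymerase and Isg20 an exonuclease.

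**Figure D2:**
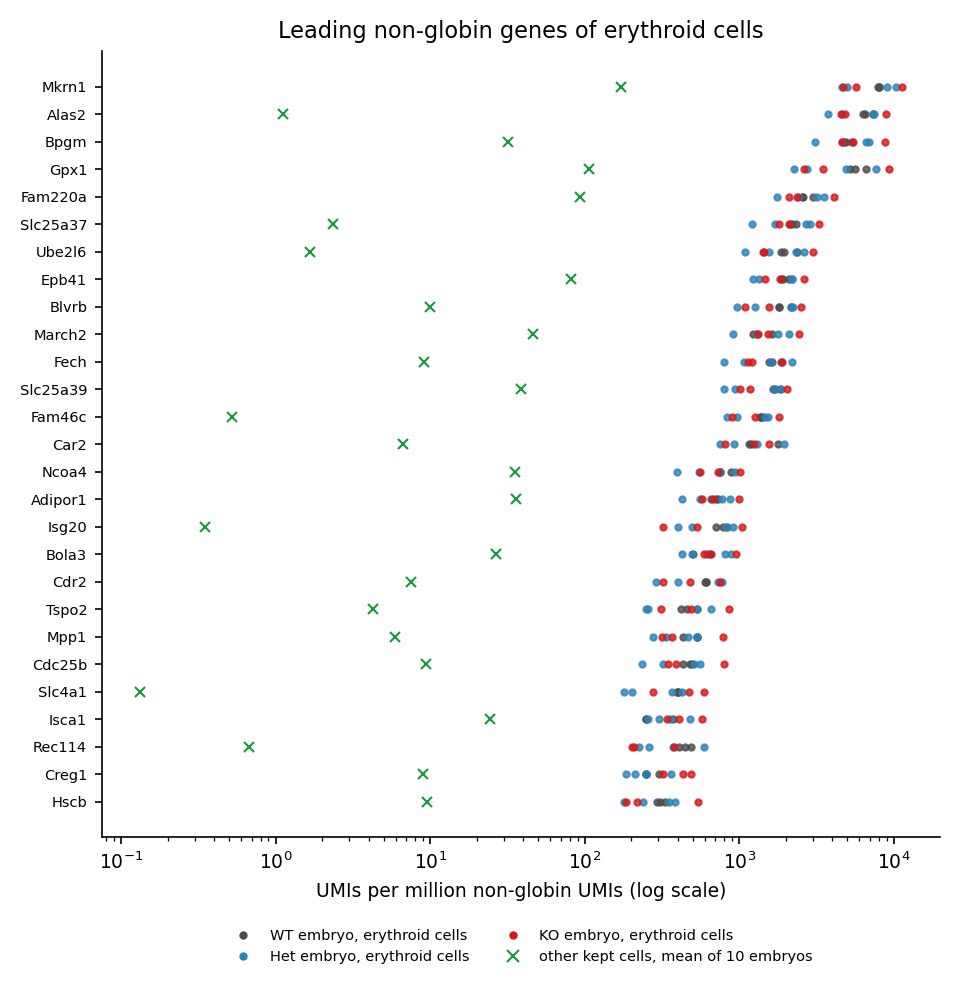
Leading genes are listed on the vertical axis, and each dot is the level in the erythroid cells of 1 embryo in CPM on a log axis, grey for WT, blue for Het and red for KO. Green crosses give the mean of 10 embryos in the other kept cells, and by the rule each gene was at least 10 times higher in erythroid cells within every embryo.

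GATA1 is the master regulator of red cell genes and binds the letters AGATAA or TGATAA. The promoter windows of RefSeq (GRCm38.p6, 250 bases before to 50 after the start) were searched on both strands for these letters, and 20 of the 30 leading genes had a window. A match was found in 4 of the 20 (20.0%), namely Alas2, Mpp1, Creg1 and Isg20, against 21.0% of all 27025 genes with a window. The letters CCACACCC, bound by the erythroid factor KLF1, were found in 0 of 20 against 4.09% of all genes. The GC box CCGCCC was found in 15 of 20 (75%) against 38.2%. A match is a string of letters and not a binding site. The parts of 3 windows upstream of the gene are shown to place the match next to the start. Capitals mark TTATCT, which is AGATAA read on the other strand. Alas2, at chrX:150547167-150547374 on the + strand, carries it 86 bases before the RefSeq start. Mpp1, a palmitoylated protein of the red cell membrane skeleton, carries it 147 bases before the RefSeq start at chrX:75131017-75131266 on the - strand. Creg1, a secreted glycoprotein, carries it 218 bases before the RefSeq start at chr1:165763508-165763745 on the + strand. The runs of Alas2 and Creg1 end where the annotated gene begins, short of the RefSeq start.
Alas2: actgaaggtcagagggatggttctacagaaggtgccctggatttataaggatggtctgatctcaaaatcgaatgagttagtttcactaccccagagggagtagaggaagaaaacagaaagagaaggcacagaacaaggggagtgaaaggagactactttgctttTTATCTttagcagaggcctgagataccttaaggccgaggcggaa
Mpp1: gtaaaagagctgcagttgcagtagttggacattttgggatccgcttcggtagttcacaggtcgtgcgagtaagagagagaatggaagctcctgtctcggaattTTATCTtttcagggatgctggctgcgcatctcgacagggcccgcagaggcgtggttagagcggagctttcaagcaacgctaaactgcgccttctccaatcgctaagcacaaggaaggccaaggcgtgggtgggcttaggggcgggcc
Creg1: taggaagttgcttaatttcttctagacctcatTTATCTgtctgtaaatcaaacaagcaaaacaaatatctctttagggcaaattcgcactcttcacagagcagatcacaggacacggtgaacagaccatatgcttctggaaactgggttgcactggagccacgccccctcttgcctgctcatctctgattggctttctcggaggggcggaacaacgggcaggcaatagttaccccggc

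As a background for the lists below, 280 of the 4369 genes with at least 100 UMIs in erythroid cells were above other cells in every embryo. Of 11 heme genes, 6 were above other cells in every embryo, and the summed level of the list was 33.5 times that of other cells (20.1 to 44.8 over embryos), or 69.8 times in the RNA-poor cells. Fech, which inserts iron into the ring, stood at 1500 CPM, and the intermediate steps were lower, with Urod at 246, Alad at 65.4 and Cpox at 56.8. Slc25a37, the mitoferrin that carries iron into mitochondria, reached 2236 ± 602 (948 times other cells). The iron list stood at 8.47 times (5.38 to 13.1, and 17.4 in the RNA-poor cells), with 4 of 11 genes above other cells in every embryo. It was led by the ferritin subunits, Ftl1 at 19342 and Fth1 at 10211, which other cells also hold. Ncoa4, the receptor that delivers ferritin for breakdown, stood at 733 (20.7 times). Tfrc, the transferrin receptor by which erythroblasts take up iron, had 193 UMIs in all erythroid cells but only 15 in the RNA-poor cells.

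Genes of the membrane and its skeleton averaged 19.8 times their level in other cells (11.7 to 35.0, and 37.3 in the RNA-poor cells), with 10 of 20 above in every embryo. Epb41, the skeleton protein 4.1, stood at 1875 CPM, and Tspo2, a translocator protein of the erythroid lineage, at 478. The blood group gene Rhd stood at 74.8. The cytosolic list, with antioxidants and metabolic enzymes, averaged 13.8 times (7.53 to 20.4, and 25.6 in the RNA-poor cells), with 11 of 14 measured genes above in every embryo. Next to Bpgm and Gpx1 it held Prdx2 at 4665, a peroxiredoxin abundant in red cells, Blvrb at 1761, Car2 (carbonic anhydrase) at 1268, Glrx5 (iron-sulfur cluster assembly) at 1010 and catalase (Cat) at 326. Car1, the other red cell carbonic anhydrase, had only 17 UMIs and Aqp1, the water channel of the mature membrane, had 0.

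The list of clearance genes, which remove mitochondria and proteins late in maturation, averaged 8.04 times other cells (5.10 to 11.0, and 15.5 in the RNA-poor cells), and 14 of 21 genes were above in every embryo. Bnip3l, the mitophagy receptor, stood at 2995 CPM and Gabarapl2, which serves the autophagosome, at 2251. Ube2l6, a ubiquitin conjugase, stood at 1965 and the kinase gene Riok3 at 772. Trim10, a ring finger gene of terminal erythropoiesis, stood at 177 and 3514 times other cells. Regulators were scarce. Of 13 transcription factors 3 were above other cells in every embryo, and the summed list was at 0.962 times (0.775 to 1.13). Gata1 had 19 UMIs in all, Klf1 23, Tal1 24 and Nfe2 35, whereas Lmo2, a partner of GATA1, stood at 204 CPM. Of 7 progenitor genes none was above other cells in every embryo, and the summed list was at 2.88 times (0 to 11.6), but at 0.212 times in the RNA-poor cells. It was led by Cd34, a surface antigen of progenitors and also of endothelial cells, with 305 UMIs of which 1 was in the RNA-poor cells. There were 40 UMIs of Kit, 9 of Gata2, 7 of Myb, 5 of Epor and 1 each of Runx1 and Spi1.

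Among 14 cell cycle genes only Ube2c, a ubiquitin conjugase of mitosis, was above other cells in every embryo, at 1172 CPM (16.7 times). The proliferation genes Mki67 and Top2a had 206 and 193 UMIs. The summed cell cycle list stood at 1.73 times (1.01 to 3.00, and 2.70 in the RNA-poor cells). The 15 NuRD genes stood at 0.684 times (0.401 in the RNA-poor cells), 6 of them below other cells in every embryo as were 1795 of the 4369 genes with at least 100 UMIs, and Mta3 was the only one above in all 10, at 44.3 against 18.4. Of 3 nuclear RNAs only Malat1, a long noncoding RNA retained in the nucleus, was below other cells in every embryo. It held 1.09 to 2.42% of the non-globin UMIs of erythroid cells and 0.298 to 0.885% in the RNA-poor cells, against 1.82 to 2.63% in other cells.

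Erythroid cells of 1 embryo varied among themselves in ways that the globin share followed. The RNA-poor cells of each embryo were divided at the median globin share, which is part of the rule, so the values are a description. The heme list was at 10488 CPM below and 22919 above the median, the clearance list at 16644 and 30848 and the iron list at 54382 and 77662, each higher above the median in all 10 embryos. Mkrn1 went from 9077 to 21005 and Alas2 from 7739 to 18187. The neuron list went the other way, from 6280 to 4484, and Malat1 from 7069 to 3801, both in all 10 embryos. The membrane list was higher above the median in 8 of 10 embryos, whereas Slc4a1 (621 and 599) and Car2 (2456 and 1744) had no common direction, with 6 and 4 of 10 embryos higher.

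A different order was seen by the share of ribosomal protein transcripts. Which end of this order is later in maturation was not tested. RNA-poor cells were divided into tertiles of this share within each embryo, and other genes were counted per 1000000 UMIs that were neither globin nor ribosomal protein. The ribosomal protein share averaged 9.37% in the lowest and 22.6% in the highest tertile. Membrane genes were higher in the lowest tertile, at 15635 against 4079, as were cytosolic genes (79690 against 29109), transcription factors (1080 against 550), clearance genes (34577 against 21296) and cell cycle genes (4754 against 1244), each in all 10 embryos. Single genes differed more. Car2 stood at 4603 in the lowest and 325 in the highest tertile, and Slc4a1 at 1307 and 119. Heme genes differed less, at 21988 and 17445, with the lowest tertile higher in all 10 embryos, and the iron list did not differ in direction, at 77685 and 78076 with 5 of 10 embryos either way. Alas2 (16611 and 14015), Bola3, which serves iron-sulfur clusters (1798 and 1566), Ncoa4 (2015 and 1639) and Slc25a39, a mitochondrial carrier (3842 and 3046), lay closer together. Rec114, known from meiosis, went the other way, at 772 and 1102.

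The tertiles also differed in depth and in free RNA. The cells of the lowest tertile had a median of 13900 UMIs and those of the highest 5555, with 995 and 598 of them outside the globins. The neuron list was at 5040 in the lowest and 7456 in the highest tertile, and relative to other cells at 0.256 and 0.341, higher in the highest tertile in all 10 embryos. The genes of the rRNA locus (Gm42418 and AY036118) were at 115267 and 182212. Their part in the order of the tertiles was not tested.

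**Figure D3:**
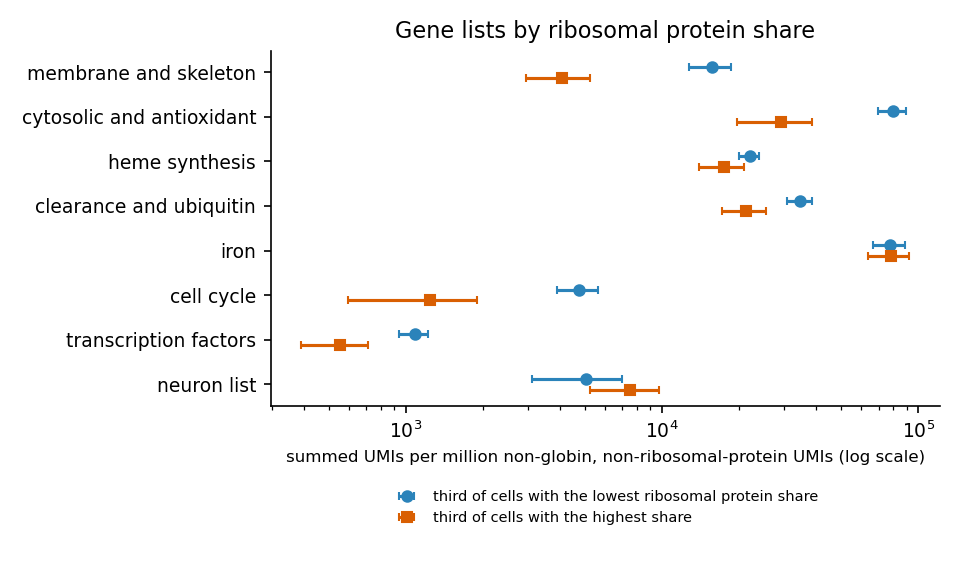
For 8 gene lists, the level in the RNA-poor erythroid cells is plotted for the lowest and the highest tertile of ribosomal protein share, in UMIs per 1000000 UMIs that are neither globin nor ribosomal protein, as the mean and SD of 10 embryos on a log axis. Membrane genes were at 15635 in the lowest and 4079 in the highest tertile, and iron genes at 77685 and 78076.

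The globins themselves were nearly all adult. Hbb-bs held 53.6 ± 1.11% of the globin UMIs, Hba-a1 18.1 ± 0.716%, Hbb-bt 14.8 ± 0.620% and Hba-a2 13.5 ± 0.267% (SD, n = 10). The pairs Hba-a1 and Hba-a2, and Hbb-bs and Hbb-bt, are nearly identical copies, so their split is uncertain, but the alpha-type sum was 29.4 to 32.8% in every embryo. The embryonic globins Hbb-y and Hba-x averaged 0.0697 and 0.0435%.

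Nearly all embryonic globin lay in 6 cells, 3 of them in Het 4 and 1 each in WT 2, Het 3 and KO 1. Embryonic globins were 82.3 to 95.7% of the globin UMIs of these cells and 0.000232% in the RNA-poor cells with mostly adult globin. Of the 6, 5 were RNA-poor and 1 cell of Het 4 was not, with 2410 non-globin UMIs, 29.1% globin and 8.29% mitochondrial UMIs. They were chosen by these values, and the rest is a description of 6 cells. Their globin UMIs were 55.0% Hbb-y and 35% Hba-x. Among their 6637 non-globin UMIs there were 0 of Alas2, Bpgm and Slc4a1 and 1 of Mkrn1. The heme list held 0.0452% of those UMIs against 1.72% in the RNA-poor cells with adult globin, and the clearance list 0.392 against 2.38%. Fth1 was higher at 4.82 against 1.74%, Ftl1 lower at 1.46 against 4.07%, and ribosomal protein transcripts made up 25% against 15.0%. These cells also held 20 UMIs of the radial glia and 5 of the microglia list. The percentages pool all 6 cells, and 2410 of the 6637 UMIs came from the 1 cell that was not RNA-poor. Another cell of Het 4 had 49.1% globin and 4.49% mitochondrial UMIs. The cells with adult globin set beside them were all RNA-poor.

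The comparisons between genotypes ask what loss of 1 or both copies of Gatad2b changed, and they share embryos with each other. The share of erythroid cells among kept cells was 2.20, 3.41 and 2.95% in WT, 2.93, 3.22, 3.15 and 1.20% in Het, and 2.27, 2.12 and 1.80% in KO. Its mean was 2.85 ± 0.611% in WT (SD, n = 3), 2.62 ± 0.958% in Het (n = 4) and 2.06 ± 0.240% in KO (n = 3). The groups overlapped. The two-sided exact permutation test gave p = 0.8 for Het vs WT and p = 0.4 for KO vs Het, and for KO vs WT p = 0.2, where the smallest p that 3 against 3 embryos allow is 0.1. The adjusted p was 0.8, 0.6 and 0.6 in that order. Het 4 had the fewest, at 1.20% with a 95% Wilson interval of 0.983 to 1.46% (counting error only), below the intervals of all other embryos. The embryonic share of globin UMIs, set by the 6 cells above, averaged 0.0512 ± 0.0885% in WT, 0.190 ± 0.348% in Het and 0.0734 ± 0.127% in KO, with SDs above the means (exact permutation test, adjusted p = 0.857 in all 3 comparisons).

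No difference in the ribosomal protein share of the non-globin UMIs passed the threshold. The share was 15.8, 15.4 and 14.8% in WT, 14.6, 14.5, 14.6 and 13.6% in Het, and 15.1, 11.5 and 12.9% in KO. Het and WT did not overlap (difference -1.01 percentage points), but the difference missed the threshold once adjusted over the 3 comparisons (exact permutation test, p = 0.0286, the smallest that 3 against 4 embryos allow, adjusted p = 0.0857). KO and WT overlapped (-2.21 points, exact permutation test, adjusted p = 0.257). In the RNA-poor cells the order was clearer, with 17.2, 17.1 and 16.7% in WT, 14.4, 13.5, 14.1 and 16.6% in Het, and 11.9, 11.9 and 13% in KO. The genotypes did not overlap there. The difference was -4.76 points in KO vs WT (exact permutation test, p = 0.1, again the smallest possible, adjusted p = 0.1), and -2.38 for Het against WT and -2.37 for KO against Het (exact permutation test, adjusted p = 0.0857 for both). Other cells held 12.6 to 13.9% in all genotypes. The non-globin UMIs include the genes of the rRNA locus, whose share differed by library prefix (given below). Their part in the order of the ribosomal protein share was not tested. The Het embryo at 16.6% was Het 4, the one that shares the WT prefix.

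Malat1 in the RNA-poor cells was at 0.823, 0.610 and 0.885% of non-globin UMIs in WT, 0.399, 0.423, 0.303 and 0.746% in Het, and 0.298, 0.349 and 0.392% in KO. KO was below WT in each embryo, and Het 4 lay among the WT values (exact permutation test, adjusted p = 0.15 for both mutants against WT). The rRNA locus genes divided the embryos by prefix. They held 6.12 to 6.46% in WT and Het 4 and 14.6 to 19.8% in the other embryos. The ribosomal protein and Malat1 shares were divided by non-globin UMIs that include these genes, while the gene fits below leave them out.

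**Figure D4:**
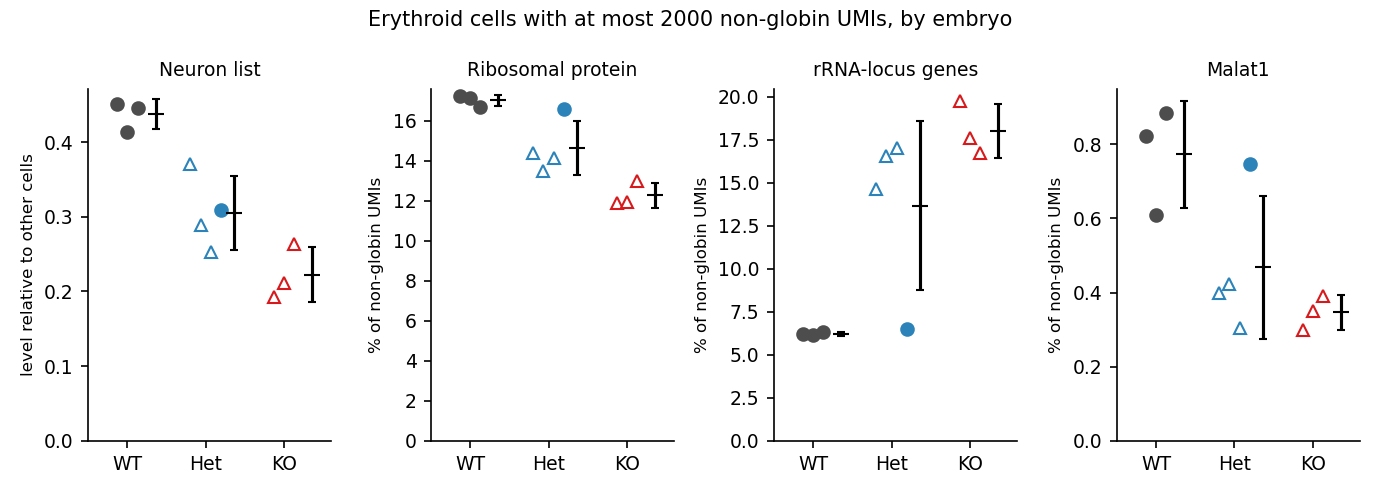
The 4 panels give, for the RNA-poor erythroid cells of each embryo, the neuron list relative to other cells, and the ribosomal protein, rRNA locus and Malat1 shares of the non-globin UMIs in percent, with the mean and SD of each genotype in black. Filled circles share the prefix of the WT libraries, and Het 4, the filled Het circle, lies nearest to WT in all panels but the first, with an rRNA locus share of 6.46%.

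Gene by gene, UMIs were summed over the erythroid cells of each embryo and fitted with edgeR. Calls required an adjusted p (Benjamini-Hochberg) under 0.05 and a log2 fold change beyond 0.25 in either direction. In all erythroid cells, none of the 5437 genes tested was called in any of the 3 comparisons (0% in each). At an unadjusted p under 0.05 there were 427 genes for Het vs WT, 682 for KO vs WT and 201 for KO vs Het, and DESeq2 called 1, 2 and 0 genes in this order. The counts depended on the settings. In cells with at least 50% globin, 2, 251 and 32 of 1537 genes were called, and with no filter on low counts 202, 396 and 2 of 15987. The sums over all erythroid cells were dominated by the RNA-rich cells described above.

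The comparison was therefore repeated in the 1446 RNA-poor cells, an alternative chosen after these values had been seen. It left 1115 genes to test and called 306 in KO vs WT (27.4%), 199 higher (17.8%) and 107 lower (9.6%). In Het vs WT it called 139 genes (12.5%), 114 higher (10.2%) and 25 lower (2.24%), and in KO vs Het 17 (1.52%), 16 higher (1.43%) and 1 lower (0.0897%). DESeq2 called 230, 94 and 8 genes in the same order. The counts leaned on single embryos. KO vs WT went to 197 without KO 2, Het vs WT to 56 without WT 3, 77 without Het 2, 83 without WT 1 or WT 2 and 90 without Het 3, and KO vs Het to 1 without KO 2, 3 without KO 1, 4 without Het 1, 8 without Het 2 and 11 without Het 3. The groups did not overlap for 290 of the 306 genes, while 42.3% of all genes tested did not overlap in KO vs WT. The level of free RNA and the library prefix moved with genotype, so each count was also taken with an estimate of the tissue RNA subtracted from each embryo, and with the prefix as a covariate. The subtraction assumes free RNA with the makeup of the other kept cells, while the neuron and interneuron lists above stood at unlike levels. With subtraction, 533 genes could be tested, and 75 were called in KO vs WT (14.1%), 36 higher (6.75%) and 39 lower (7.32%), 2 in Het vs WT (0.375%) and none in KO vs Het (55 at an unadjusted p under 0.05). With the prefix as a covariate, 80 genes were called in KO vs WT (7.17%), 66 higher (5.92%) and 14 lower (1.26%). KO vs Het had 17 calls with the prefix (1.52%), 15 higher (1.35%) and 2 lower (0.179%), and it then compares KO with Het 1 to 3. Het vs WT with the prefix compares Het 4 alone with WT 1 to 3, so its count is left out. KO vs WT with the prefix rests on Het 4 as the only mutant with the WT prefix.

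Erythroid genes rose in KO vs WT among the RNA-poor cells as counted. Of the heme list 5 of 5 tested genes rose (median log2 fold change 0.90), of the iron list 4 of 5 (0.93), of the membrane list 5 of 6 (1.34), of the cytosolic list 9 of 11 (0.94) and of the clearance list 12 of 14 (0.89), and none fell, while 17.8% of all genes tested rose and 9.6% fell, with a median of -0.10. Of the neuron list 8 of 14 fell (-0.66), and Npy of the interneuron and Fabp7 of the radial glia list fell too. With subtraction, the heme list had 0 of 4 genes called (median 0.16, 0 at an unadjusted p under 0.05) and iron 1 of 4 (0.30). The cytosolic list had 2 of 10 (0.33), clearance 2 of 13 (0.31) and membrane 3 of 6 (0.68), beside 6.75% of all genes higher and 7.32% lower. Of the neuron list 1 of 4 was called lower, but the subtraction was scaled on this list, so that count cannot serve as a test. With the prefix as a covariate 3 of 5 heme, 3 of 5 iron, 4 of 6 membrane, 6 of 11 cytosolic and 6 of 14 clearance genes were called higher in KO vs WT (medians 1.44, 0.96, 1.39, 0.95 and 0.97), beside 5.92% of all genes, and of the neuron list 1 of 14 lower (-0.70). In Het vs WT as counted, 1 of 5 heme, 4 of 5 iron, 5 of 6 membrane, 8 of 11 cytosolic and 10 of 14 clearance genes rose, beside 10.2% of all genes tested. With subtraction these counts were 0, 1, 0, 0 and 0, beside 0.375% of all genes. The medians were 0.56, 0.56, 0.67, 0.60 and 0.59 as counted, 0.13, 0.17, 0.26, 0.23 and 0.16 with subtraction and 0.65, 0.59, 0.84, 0.64 and 0.63 with the prefix. In KO vs Het as counted they were 0, 1, 3, 0 and 1, beside 1.43% of all genes, and with subtraction 0 in each list. Of 12 mitochondrial genes 5 rose in KO vs WT as counted, 4 with subtraction, and 0 with the prefix as a covariate (1 at an unadjusted p under 0.05). Of the NuRD genes only Rbbp4, Hdac2 and Chd3 could be tested, and edgeR gave them log2 fold changes of 0.19, -0.56 and -0.13 in KO vs WT (adjusted p = 0.666, 0.292 and 0.792). Of the transcription factors and of the cell cycle genes 1 of 2 tested rose, Lmo2 by 1.47 and Ube2c by 0.96, and neither stayed called with subtraction. Malat1 fell by 0.66 (edgeR, adjusted p = 0.00618), and with the prefix as a covariate its log2 fold change was 0.17. Genes of the progenitor, microglia, endothelial, mural, choroid plexus and megakaryocyte lists were too low to test.

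**Figure D5:**
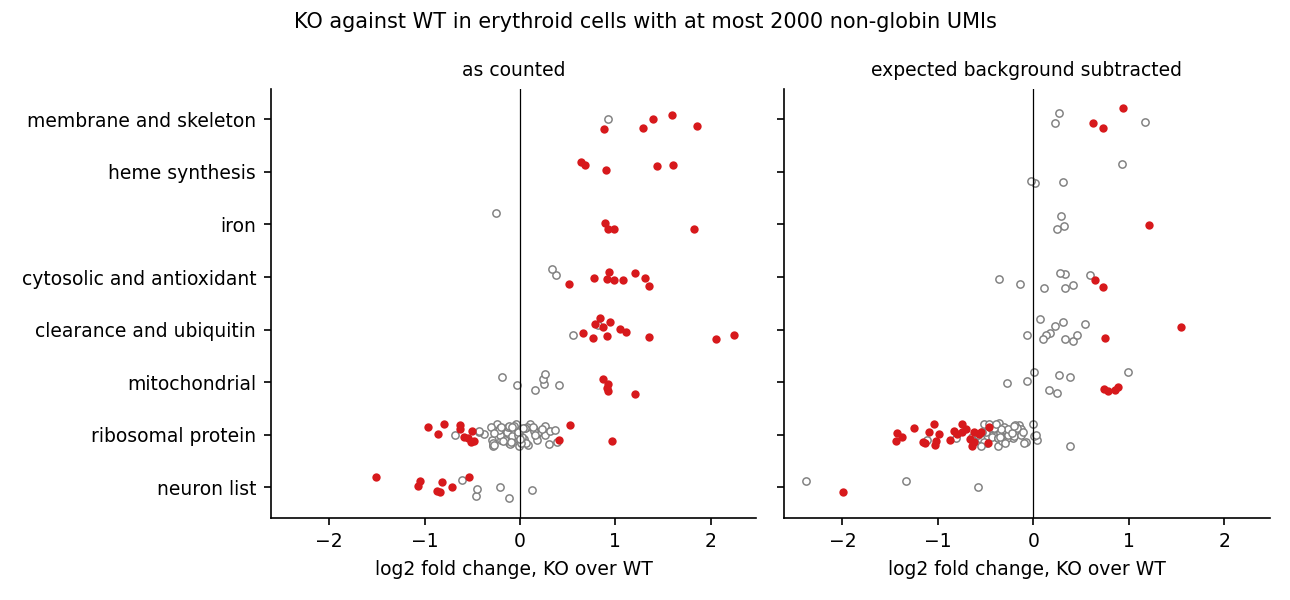
Each point is 1 tested gene of a list, placed by its log2 fold change of KO over WT in the RNA-poor erythroid cells, as counted on the left and with the estimated tissue RNA subtracted on the right. Red points were called and open points were not, and the number of called heme genes went from 5 as counted to 0 with subtraction.

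Slc4a1 and Tspo2 of the membrane list were called in KO vs WT both as counted and with subtraction. For Slc4a1, Tspo2, Fth1, Bpgm, Glrx5 and Ube2h, KO vs WT with the prefix as a covariate is not given here. Slc4a1 had 443, 502 and 427 TMM-normalized CPM in WT, 716, 1086, 879 and 690 in Het, and 1286, 1367 and 1502 in KO, with no overlap between the 3 genotypes. Its log2 fold change in KO vs WT was 1.59 ± 0.19 (SE, adjusted p = 7.93e-09, edgeR), and 0.94 with subtraction (adjusted p = 0.00637). In KO vs Het its log2 fold change was 0.70 (edgeR, adjusted p = 0.0288), and this call was lost with subtraction (0.47, edgeR, adjusted p = 0.327) and with the prefix as a covariate (0.63, edgeR, adjusted p = 0.0539). Tspo2 rose by 1.29 in KO vs WT and by 0.63 with subtraction (edgeR, adjusted p = 0.0371). Rhd rose by 1.85 as counted, and with subtraction its log2 fold change was 1.17 (edgeR, adjusted p = 0.095).

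Fth1, the heavy chain of ferritin, differed most among the iron genes. It had 11376, 14816 and 10702 CPM in WT, 23781, 31744, 31048 and 24512 in Het, and 44076, 53510 and 32938 in KO, again without overlap. The log2 fold change was 1.17 in Het vs WT (adjusted p = 1.65e-05, edgeR), 1.82 ± 0.20 in KO vs WT (adjusted p = 8.52e-10) and 1.21 in KO vs WT with subtraction (adjusted p = 0.000707). The light chain Ftl1 rose by 0.93 in KO vs WT, and with subtraction its log2 fold change was 0.29. Alas2 showed how much the subtraction could move a log2 fold change. Other cells held it at only 1.12 CPM, so few of its own UMIs were subtracted. It had 13821, 16259 and 12652 CPM in WT, 15875, 21507, 22519 and 18584 in Het, and 27382, 23615 and 17534 in KO. Its log2 fold change in KO vs WT was 0.68 ± 0.18 (adjusted p = 0.00424, edgeR) as counted and 0.02 with subtraction.

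Among cytosolic genes Bpgm was at 9070 to 9553 CPM in WT, 16484 to 19872 in Het embryos and 20824 to 26768 in KO embryos. It rose by 1.31 in KO vs WT on the log2 scale and by 0.64 with subtraction (edgeR, adjusted p = 0.00384). Glrx5 rose by 1.35 and by 0.73 with subtraction (edgeR, adjusted p = 0.00923). Car2 rose by 1.02 in Het embryos and by 1.08 in KO embryos against WT, with a log2 fold change of 0.06 between KO and Het, and both calls were lost with subtraction (0.60 and 0.42). Of the clearance genes, Ube2h, a ubiquitin conjugase induced late in erythropoiesis, had 766, 644 and 657 CPM in WT, 951, 1323, 1095 and 1044 in Het, and 1650, 1783 and 1807 in KO. Its log2 fold change in KO vs WT was 1.35 as counted and 0.75 with subtraction (edgeR, adjusted p = 0.00923). Trim10 rose by 2.25 as counted and 1.55 with subtraction (edgeR, adjusted p = 0.0137), and the call was lost with the prefix as a covariate (1.63, edgeR, adjusted p = 0.0605).

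Next to Trim10, the 9 largest increases in KO vs WT among called genes without overlap were Tceal8 (log2 fold change 2.37), St3gal5 (2.36), Cd59a (2.05), Xpo7 (2.05), Lars2 (2.03), Pttg1 (1.98), Prdx3 (1.96), Ssx2ip (1.92) and D5Ertd579e (1.88). St3gal5, the synthase of the ganglioside GM3, had 203, 155 and 144 CPM in WT, 438, 527, 504 and 354 in Het, and 844, 872 and 837 in KO. The genotypes did not overlap, and Het 4 was the lowest of the Het embryos. Its log2 fold change was 1.89 with subtraction (adjusted p = 0.000707, edgeR) and 1.90 with the prefix as a covariate (adjusted p = 0.00771), and St3gal5 and Fth1 were the 2 genes called in Het vs WT with subtraction. Cd59a encodes an inhibitor of complement on red cells, Xpo7 a nuclear exporter used in terminal erythropoiesis, Pttg1 securin and Prdx3 a mitochondrial peroxiredoxin. Lars2, a mitochondrial leucyl-tRNA synthetase, followed the prefix, with 2138 to 2260 CPM in WT, 3057 in Het 4 and 5427 to 9863 in the other embryos, as did the rRNA locus share. The part of the rRNA locus in its count was not tested. Of the 10 genes, Trim10 included, Tceal8, St3gal5, Cd59a, Lars2 and Ssx2ip stayed called both with subtraction and with the prefix as a covariate. The log2 fold change of Lars2 was then 1.39 with subtraction and 0.88 with the prefix (edgeR, adjusted p = 0.0404), against 2.03 as counted. Trim10, Pttg1 and D5Ertd579e stayed called with subtraction but not with the prefix, Prdx3 with neither, and Xpo7 could not be tested with subtraction and was not called with the prefix. With the prefix the log2 fold changes were 1.63 (Trim10), 1.48 (Pttg1), 1.58 (D5Ertd579e), 0.69 (Prdx3) and 1.20 (Xpo7). That of Prdx3 was 1.56 with subtraction.

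The largest decreases in KO vs WT were Pak3 (log2 fold change -2.42), Kifap3 (-2.37), Zcchc18 (-2.33), Gnaq (-2.04), Bola2 (-1.95), Syncrip (-1.88), Ndn (-1.86), Aplp1 (-1.82), Lmo4 (-1.81) and Hspd1 (-1.77). Their levels in KO embryos were 0 to 99.1 CPM, so these changes rest on few UMIs. Pak3 stood at 19.2, 19.8 and 19.0 CPM in KO, against 64.6, 136 and 118 in WT. Zcchc18 stood at 0, 19.8 and 57.1 CPM in KO. None of the 10 could be tested with subtraction, and none stayed called with the prefix as a covariate (edgeR, adjusted p = 0.0657 to 0.794). The log2 fold changes with the prefix ran from -2.65 (Zcchc18) to -0.54 (Hspd1). They were larger in size than as counted for Zcchc18, Kifap3 (-2.43), Ndn (-2.18) and Aplp1, and smaller for the other 6. Pak3, Ndn, Aplp1 and Lmo4 are known from neurons. The neuron list genes Map1b, Mapt and Tubb3 fell by 0.82, 1.06 and 0.71 on the log2 scale, and with the prefix as a covariate their log2 fold changes were -0.34, -0.75 and -0.59 with no call, beside a neuron level that was 0.414 to 0.452 of that in other cells in WT and 0.192 to 0.264 in KO.

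Of the ribosomal protein genes as counted, 3 of 77 rose and 10 fell in KO vs WT (median log2 fold change -0.09), beside 17.8% and 9.6% of all genes tested. With subtraction 0 of 76 rose and 25 fell (-0.45), beside 6.75% and 7.32% of all genes, while with the prefix as a covariate 0 were called in either direction (3 at an unadjusted p under 0.05). Of genes named after their values had been seen, Rps28 fell by 0.96 and Rps27 by 0.86 as counted, while Rps2 rose by 0.97 (edgeR, adjusted p = 8.49e-05, 0.000578 and 1.57e-05). Rps28 and Rps27 stayed called with subtraction but not with the prefix as a covariate, and Rps2 with neither.

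In Het vs WT the largest increases were Trim10 (log2 fold change 1.87), Xpo7 (1.68), Rhd (1.53), Hspa5 (1.49), St3gal5 (1.48), Pttg1 (1.46), Lars2 (1.43), Ctdsp2 (1.32), Tceal8 (1.30) and Fbxo9 (1.30). With the prefix as a covariate, Het vs WT compares Het 4 alone with the WT embryos, so only log2 fold changes are given. The log2 fold changes of Hspa5 (2.03), Ctdsp2 (1.49) and Tceal8 (1.49) were then larger, and the rest were smaller, down to 0.48 (Lars2). With subtraction only St3gal5 stayed called, while Xpo7, Hspa5 and Ctdsp2 could not be tested. The log2 fold changes with subtraction ran from 1.02 (Lars2) to 1.42 (Trim10), with 1.22 for St3gal5. The WT embryos are the same as in KO vs WT. The largest decreases were Inpp5f (-1.85), Tpr (-1.65), which encodes a nuclear pore protein, and Eif5b (-1.43), a translation factor. Inpp5f stood at 21.4, 75.3, 14.4 and 55.9 CPM in the Het embryos, so its change rests on few UMIs. These 3 genes could not be tested with subtraction. Their log2 fold changes with the prefix were -1.44, -2.27 and -1.63. In KO vs Het, the largest increases were Tspyl1 (1.36), Ssx2ip (1.31), Nadk2 (1.14), Creg1 (1.14), Tceal8 (1.07) and Cd59a (1.05), and the single gene that fell was Rpl36a (-0.77, adjusted p = 0.0259, edgeR). None of these 7 stayed called with subtraction, and all but Nadk2 did with the prefix as a covariate. With subtraction the log2 fold changes were 1.45, 1.13, 0.96, 0.90, 0.93 and 0.79 in the order given, and -1.25 for Rpl36a. Creg1 had 388, 440 and 401 CPM in WT, 694, 807, 764 and 428.7 in Het, and 1708, 1208 and 1616 in KO. The KO embryos were all above the Het embryos, and Het 4 lay within the WT range (KO vs Het adjusted p = 0.000185, edgeR).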

How the data were processed

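The authors prepared 10X Genomics 3′ version 3 libraries, aligned the reads to mm10 and deposited UMI counts per gene and cell barcode for each embryo, without normalization. The submitters' processing notes name Cell Ranger 6.0.2. The matrices held 80071 barcodes, and the study's limits of 1000 or more UMIs and a mitochondrial share of 10% or less were applied. Gene coordinates are those of GENCODE vM21, in which 30934 of the 31053 gene IDs were found. Levels are UMIs per 1000000 non-globin UMIs, summed over the erythroid cells of an embryo.

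For tests, counts were summed per embryo, without sex, globin and rRNA locus genes, and all 10 embryos were fitted with edgeR 4.0.16 (limma 3.58.1, R 4.3.3) using TMM normalization, the filterByExpr filter and the quasi-likelihood test with Benjamini-Hochberg adjustment. The study tested cells, whereas sums per embryo were tested here. DESeq2 1.42.0 was an alternative. Shares were compared by two-sided exact permutation tests over all splits of the embryos, and scipy 1.17.1 adjusted the p-values over the 3 comparisons. The subtracted tissue RNA was the neuron level relative to other cells times the profile of the other cells, rounded. This assumes that free RNA has the makeup of the other cells. In the RNA-poor cells of WT the interneuron list stood at 0.880 to 1.02 of its level in other cells, and the neuron list at 0.414 to 0.452. Calls kept or lost with subtraction rest on that assumption. The scripts were tested on simulated data.

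The members and the gene lists were chosen with earlier results of these data known. Named genes were up to 10 of the largest increases and decreases per comparison among called genes without overlap, the 30 leading genes, list members and globins. Alternatives were other globin, UMI and mitochondrial limits, removal of likely doublets, DESeq2, its size factors, no filter, 2 groups only, the library prefix, the replicate block, subtraction, means over cells and leaving out each embryo. All fits and shares of cells with at most 2000 non-globin UMIs were added after seeing the data. Some genes that the rule names are not reported here.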

Additional observations from a re-analysis of the deposited data

Results flagged for a closer look

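The 4 shares compared between genotypes each had 1 Het embryo that stood apart from the other 3, by a gap larger than Dixon's 95% limit for 4 samples, and each time it was Het 4. Among the Het embryos it had the lowest share of erythroid cells (1.20%), the highest share of embryonic globin (0.712%), the lowest ribosomal protein share in all erythroid cells (13.6%) and the highest Malat1 share (2.22%). Chance gives such a gap in about 1 of 20 groups for a single measure, and the 4 shares come from the same cells. More measures of the embryos were screened and gave no such gap, among them the ribosomal protein and Malat1 shares of the RNA-poor cells. There Het 4 had the highest ribosomal protein share of the Het embryos (16.6%). Het 4 is the Het library that shares the prefix of the WT libraries, and it had 95 erythroid cells and 166488 non-globin UMIs, the fewest of the Het embryos. It held 3 of the 6 cells with embryonic globin. The part of the prefix and of depth was not tested.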

How the results depend on the processing

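With 95 to 244 erythroid cells per embryo, regulators such as Gata1 (19 UMIs in all) and Klf1 (23 UMIs) were too low to test. Of 172 values of the shares under alternatives 152 kept their direction. Of 1312 values of named genes 11 turned and 327 lost their call, and 55 of 78 counts of called genes stayed within 1.5 times. The cause of the exceptions was not tested.
The counts of called genes in all erythroid cells, 0 in each comparison, became 1 (Het vs WT) and 2 (KO vs WT) with DESeq2, 202, 396 and 2 (Het vs WT, KO vs WT, KO vs Het) with no filter on low counts, 1 in Het vs WT with only the 2 groups, and 2, 251 and 32 with globin of at least 50%. Leaving out any embryo kept them at 0. In cells with at most 2000 non-globin UMIs they were 139, 306 and 17. With subtraction they were 2 and 75, with DESeq2 94, 230 and 8, and leaving out 1 embryo 56 to 172, 197 to 324 and 1 to 19. With the prefix KO vs WT had 80 and KO vs Het 17.
Same-numbered embryos of different groups did not deviate together in all pairs (correlations from -0.447 to 0.529). Deviations from a group mean cannot all go the same way, so these values cannot decide whether the numbers pair the embryos. With the replicate block, 0 genes were called in each comparison in all erythroid cells, and 116, 300 and 7 in the RNA-poor cells.
The difference in erythroid share turned to 0.259 (Het vs WT) and 0.0762 (KO vs WT) without likely doublets (cells with the neuron list at 0.5 or more of other cells, a rule that follows free RNA and took 284 of 652 WT, 184 of 641 Het and 65 of 353 KO cells, 428 of the 533 RNA-poor), and in Het vs WT to 0.338 with at most 5% mitochondrial UMIs and 0.249 with the block. The embryonic globin difference turned to -0.0709 in KO vs WT without doublets, to -0.0346 in Het vs WT with the block, and to 0.0569 in KO vs Het with the block and within the prefix. Malat1 turned to 0.104 in KO vs Het without doublets and 0.109 with the block or within the prefix, and to 0.276 in Het vs WT within the prefix. Leaving out 1 embryo, the differences in Het vs WT, KO vs WT and KO vs Het ranged from -0.552 to 0.249, -1.12 to -0.510 and -1.04 to -0.366 for the erythroid share (0.249 without Het 4, 0.0535 without WT 2), from -0.0346 to 0.203, -0.0508 to 0.0733 and -0.190 to 0.0569 for embryonic globin, from -0.778 to -0.278, -0.826 to -0.432 and -0.251 to 0.109 for Malat1, and from -1.28 to -0.755, -3.18 to -1.37 and -2.17 to -0.355 for ribosomal proteins.
In all erythroid cells 83 of the 91 calls of named genes were lost and 8 turned: in Het vs WT Car2 -0.11, Enc1 0.056, Slc4a1 -0.39 and Xpo7 -0.42, and in KO vs WT Car2 -0.038, Fech -0.087, Urod -0.25 and Xpo7 -0.11 on the log2 scale. With subtraction Fech turned to -0.022 and Rplp0 to -0.00091, and with the prefix Malat1 to 0.17, all in KO vs WT.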
